A study of Arabidopsis thaliana with 3 samples.

Results

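The 10 genes described here encode GDSL-type lipases and esterases of Arabidopsis thaliana, measured in leaves of plants that overexpress the transcription factor WIN1. GDSL enzymes are named after a Gly-Asp-Ser-Leu motif around the active-site serine, and they hydrolyse or transfer acyl groups on many kinds of ester. In the plant epidermis, members of this family join hydroxy fatty acid monomers into cutin, the polyester that forms the frame of the cuticle, and other members act in the pollen coat or in defence. WIN1, an AP2/ERF factor, is known for raising wax and cutin production when overexpressed. Which ester each of the 10 enzymes acts on is not given in the sources used here, so no gene is assigned a step in cutin or wax synthesis.

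The genes were chosen from a list of 10 loci, each read on the array by 1 probe set, that is, by several short probes for the same transcript whose signals are combined into 1 value. These 10 probe sets were 10 of 8247 on the array, and 10 of the 3592 loci that were read by a probe set paired with a single gene. AT2G04570 and AT2G42990 had been noticed for their higher values in both WIN1 lines, so the list was drawn up with those values known. Every ratio to the control is therefore given as a description, with no test. In the gene table used, only AT1G54010 carries a family name (GDSL-like lipase 23, GLL23), and the other 9 were taken as members of the family from the list.

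RNA from leaves was hybridised to 3 Affymetrix Arabidopsis genome arrays. One array held RNA of 35S:WIN1 line 13 and another RNA of 35S:WIN1 line 22, each pooled from several T2 plants of a transgenic line in which the 35S promoter, active in most tissues, drives WIN1. The control array held pooled leaf RNA of plants carrying an empty binary vector, which the sample title calls WT. Plant age and the number of plants in a pool are not given in the labels. The WIN1 group thus had n = 2 lines and the control n = 1 array, both ratios share that control, and its own error does not enter the SD between the lines.

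The deposited intensities were scaled to a common mean, 18.6 was added as a pseudocount, and log2 was taken, so that log2 ratios of dim probe sets are understated. All 10 members passed the filter on dim probe sets, which kept 5773 of 8247. AT2G27360 and AT1G54010 passed narrowly, at percentiles 30.02 and 30.7 of mean log2 intensity against a limit of 30. On each array 5% of scaled values lay further below 0 than 16.2 (line 13), 18.1 (line 22) or 13.2 (control), and a value smaller than these is described as within the background depth. Line 22 was the noisier array: among 108 genes read by several kept probe sets, log2 ratios of the same gene scattered with an SD of 0.216 on the line 13 array and 1.12 on the line 22 array. In line 22 this within-gene SD was larger than the SD of the ratios of all kept probe sets, 0.936, and in line 13 it was smaller than theirs, 0.401. Ratios of the other 8 members are therefore set below beside both the within-gene SD and the SD of all kept ratios in the same brightness decile. The ratios are counted from 0, whereas a decile's SD is taken about its own mean. Medians of the deciles in line 22 ran from -0.28 to 0.41, so this comparison is a rough one there. Neither SD holds the spread between separate pools of control plants, which 1 control array cannot give.

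AT2G04570 (16279_at) had a scaled intensity of 132.3 in the control, 1521 in line 13 and 585.6 in line 22. Both WIN1 arrays lay above the control, and line 13 lay above line 22. The plain ratio to the control was 11.5-fold in line 13 and 4.43-fold in line 22. On the log2(value + pseudocount) scale these were 3.35 and 2.0, a mean log2 ratio of 2.68 ± 0.954 (SD, n = 2 lines). Of the 5773 kept probe sets, 1 had a higher ratio in line 13 and 33 had a higher ratio in line 22. In its brightness decile of the kept probe sets, 4 of 577 were at least 2-fold higher in both lines, this gene among them. Deciles follow the mean over the 3 arrays, so the WIN1 values helped to place the gene in its decile. The control value was well clear of the background depth, so the pseudocount had little part in the size: without it the mean log2 ratio was 2.84.

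AT2G42990 (17620_at) had a scaled intensity of 13.7 in the control, 109.8 in line 13 and 137.7 in line 22. The lines were close to each other, with line 22 above line 13, the reverse of the order for AT2G04570. The log2 ratios were 1.99 and 2.27, a mean of 2.13 ± 0.201 (SD, n = 2 lines). In line 13, 9 kept probe sets had a higher ratio, and in line 22, 18 did. In its brightness decile, 10 of 577 probe sets were at least 2-fold higher in both lines, this gene among them. Its WIN1 values likewise helped to place it in that decile. The control value lay just above the background depth of 13.2 and below the pseudocount, so how much higher the lines were is poorly measured for this gene. The plain ratios were 8.01-fold and 10.1-fold, and the mean log2 ratio went from 1.35 to 2.84 between pseudocounts at the 40th and 5th percentiles.

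The position of a value among all values of its own array depends on neither scaling nor pseudocount. AT2G04570 stood at percentile 63.6 of the control array, 97.9 of line 13 and 89.5 of line 22. AT2G42990 stood at percentile 27.0, 59.5 and 68.6 in the same order. Both genes therefore stood further up on either WIN1 array than on the control array by a measure that takes the deposited values as they are. The positions come from the values for which both genes were listed, so they show only that scaling and pseudocount do not set the direction.

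**Figure D1:**
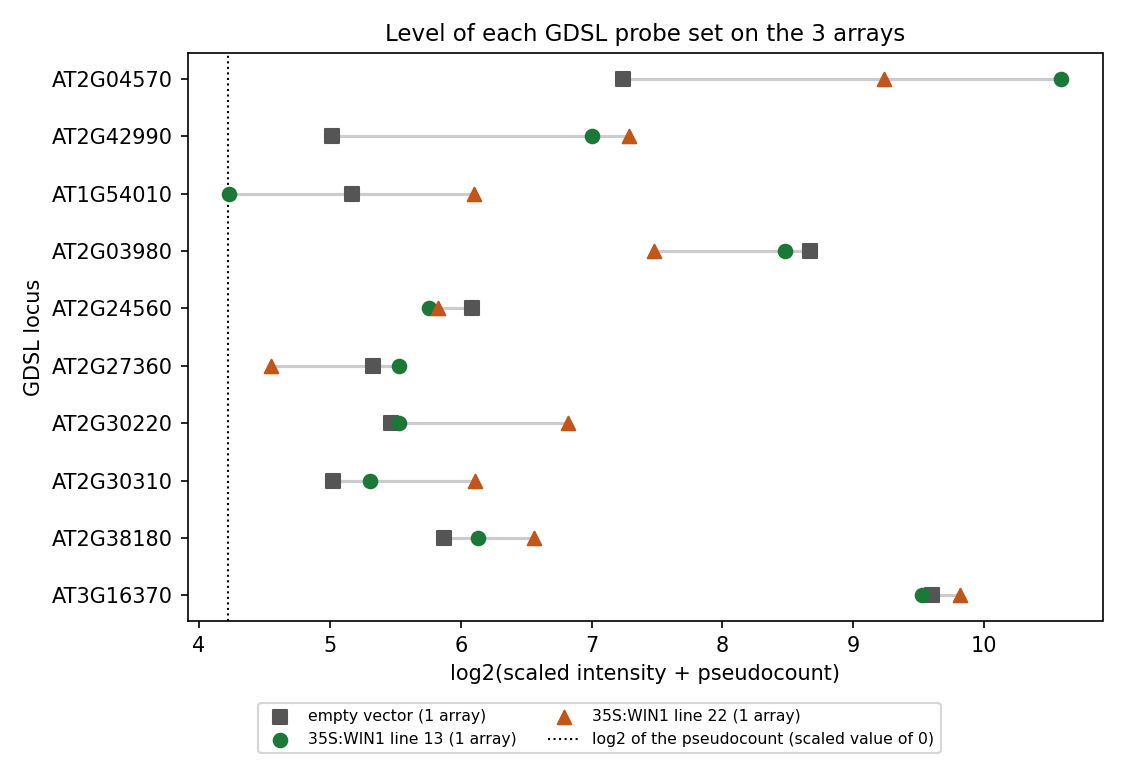
Levels of the 10 GDSL probe sets on the 3 arrays, as log2(scaled intensity + pseudocount) on the horizontal axis, with 1 locus per row and 1 point per array. The dotted line is the log2 of the pseudocount, where a scaled value of 0 falls, and values are to be compared within a row only. For AT2G04570 and AT2G42990 both line points lie at least 1.99 log2 units to the right of the control.

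**Figure D2:**
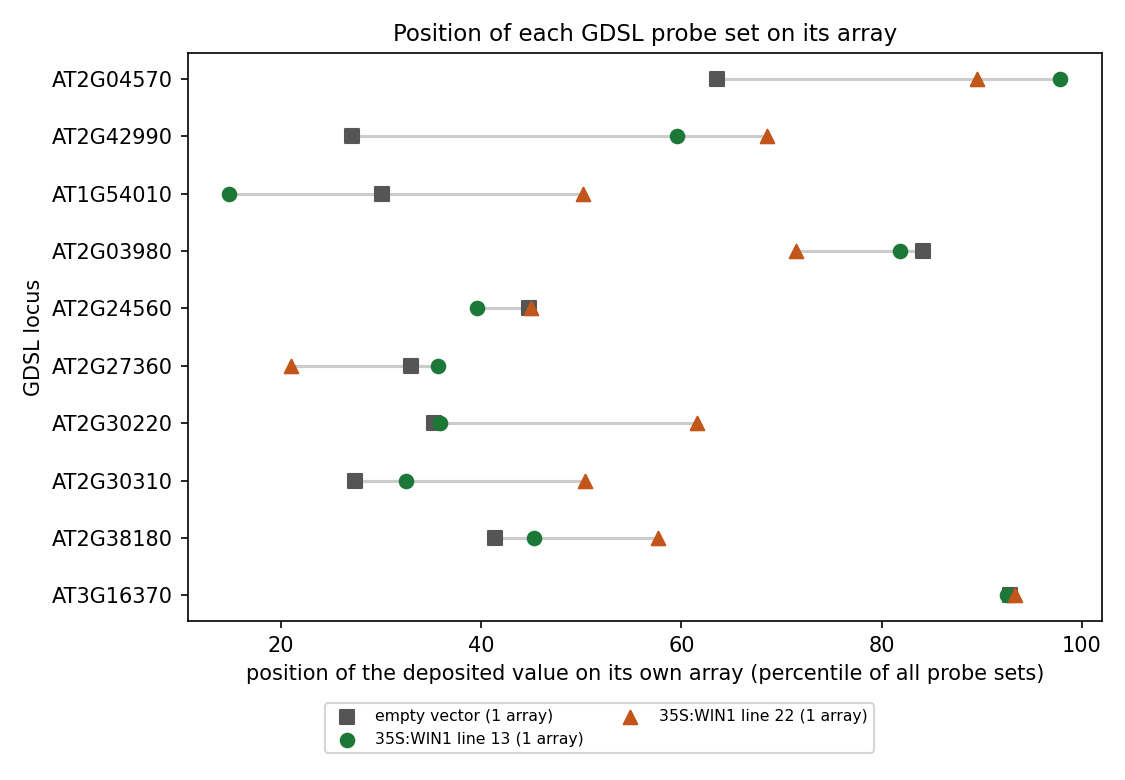
Position of each GDSL probe set on its own array, as the percentile of its value among all 8247 probe sets, with 1 locus per row and 1 point per array. AT2G04570 moves from percentile 63.6 in the control to 97.9 in line 13 and 89.5 in line 22, whereas AT3G16370 stays between 92.5 and 93.3.

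By a rule of size, a log2 ratio of at least 1 in both lines, 2 of the 10 members were higher than the control and 0 were lower. The same rule was met by 0.866% of kept probe sets in the higher direction and by 0.554% in the lower direction. The members met it because AT2G04570 and AT2G42990 were listed for it, so nothing about the family is read from the count. Over the 10 members the median log2 ratio was 0.13 in line 13 and 0.81 in line 22, against 0.01 and -0.09 over all kept probe sets. Over the other 8 members the medians were -0.01 and 0.45. Since bulk leaf RNA was measured, more cells of a type that expresses a gene and more of its RNA per cell cannot be told apart.

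In line 13, none of the other 8 members was 2-fold away from the control, and their log2 ratios ran from -0.94 to 0.29. The background there was 1.49% of kept probe sets at least 2-fold higher and 1.25% at least 2-fold lower. In line 22 the other 8 ran from -1.19 to 1.35, and 3 of them were at least 2-fold away, where 23.8% of kept probe sets were. Of the 8, 2 had line 22 log2 ratios larger than the within-gene SD of that array, AT2G30220 and AT2G03980. Beside the SD of their brightness decile 4 were larger, these genes and AT2G30310 and AT1G54010. In line 13, 4 of the 8 were larger than the within-gene SD of 0.216: AT1G54010, AT2G24560, AT2G30310 and AT2G38180. Only AT1G54010 was larger there than its decile's SD. The SD of all kept line 13 ratios, 0.401, was itself larger than 0.216. How many of all kept probe sets passed these SDs was not counted, so nothing about the members is read from these counts.

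AT2G30220 (20119_s_at) had scaled intensities of 25.6 in the control, 27.7 in line 13 and 94.3 in line 22. Line 13 and the control were nearly level, and line 22 alone stood above them. The log2 ratios were 0.07 and 1.35, a mean of 0.71 ± 0.910 (SD, n = 2 lines). The suffix of this probe set is the one that the manufacturer gave to probe sets whose probes can match more than 1 transcript, so signal from a related gene may be included.

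AT2G30310 (14362_at) lies near AT2G30220 in the same chromosome region, with 8 protein-coding genes between them in the gene order of assembly TAIR10.1. It had scaled intensities of 13.9 in the control, 21.0 in line 13 and 50.3 in line 22. The log2 ratios were 0.29 and 1.08, so line 22 again stood highest. Its line 22 ratio was larger than the SD of its brightness decile, 0.790, and smaller than the within-gene SD of 1.12. Its control value lay just above the background depth of 13.2 and below the pseudocount, so the size of its ratios is poorly measured. The line 22 ratio was 0.60 without scaling, and also 0.60 with a pseudocount at the 40th percentile. These genes were the closest pair among the members, and the next closest, AT2G03980 and AT2G04570, had 58 protein-coding genes between them. At least 2-fold higher in line 22 were 7.38% of all kept probe sets.

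AT2G03980 (15750_at) was the member furthest below the control in line 22. Its scaled intensities were 389.1 in the control, 337.7 in line 13 and 159.6 in line 22. The log2 ratios were -0.19 and -1.19, a mean of -0.69 ± 0.707 (SD, n = 2 lines). The line 13 ratio was smaller than both the within-gene SD and that of its brightness decile, and the line 22 ratio was just above both, 1.12 and 1.01. In line 22, 16.4% of kept probe sets were at least 2-fold lower than the control.

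AT3G16370 (16017_at) was the member with the steadiest position, with scaled intensities of 759.1 in the control, 717.7 in line 13 and 883 in line 22. Its log2 ratios were -0.08 and 0.21, each smaller than both SDs of its line. In line 22 the median of its brightness decile was 0.41, above its own ratio. AT2G38180 (15047_at) had 39.9, 51.6 and 75.6 in the same order, log2 ratios of 0.26 and 0.69. Its order of levels was control, line 13 and then line 22. The line 13 ratio was larger than the within-gene SD of 0.216 but smaller than the SD of its brightness decile, 0.456. Counted from 0, the line 22 ratio was smaller than both SDs of that line. The median of its decile in line 22 was -0.25, and counted from there the ratio was larger than the decile's SD of 0.907.

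AT2G24560 (16192_at) was the only member besides AT2G03980 that was lower than the control in both lines. Its scaled intensities were 49.2 in the control, 35.5 in line 13 and 38.1 in line 22. The log2 ratios of -0.33 and -0.26 gave a mean of -0.29 ± 0.049 (SD, n = 2 lines). The close lines do not measure the control's error, and the line 22 ratio turned to 0.04 after scaling to a common median and to 0.01 after quantile normalization.

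The remaining members, AT1G54010 and AT2G27360, each had a value within the background depth on 1 array. AT1G54010 (16493_at), GDSL-like lipase 23, had scaled intensities of 17.5 in the control, 0.2 in line 13 and 49.9 in line 22. The lines lay on opposite sides of the control, with log2 ratios of -0.94 and 0.93, a mean of -0.01 ± 1.32 (SD, n = 2 lines). The value of 0.2 has no order against other values at background, and the line 13 ratio was 0 where a floor replaced the pseudocount. Its control value also lay below the pseudocount, so the size of the line 22 ratio is poorly measured too. Over 7 settings the line 22 ratio ran from 0.42 to 1.42. On its chromosome this gene lies directly beside GLL22 and has 1 protein-coding gene between it and GLIP3, both named as GDSL lipases in the gene table. Neither neighbour was read by a named probe set.

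AT2G27360 (12676_at) had scaled intensities of 21.6 in the control, 27.5 in line 13 and 4.9 in line 22. The line 22 value lay within the background depth, so its log2 ratio of -0.78 is set in part by the pseudocount. The line 13 ratio was 0.20, smaller than both SDs.

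Counted by sign alone, 5 members were higher than the control in both lines, 2 were lower in both and 3 had opposite signs. The 5 include AT2G04570 and AT2G42990, which were listed for being higher in both lines, beside AT2G30220, AT2G30310 and AT2G38180. Nothing about the family is therefore read from this count. The ratios share the control array, so a low or high control value by itself moves both lines the same way. Among all kept probe sets, 27.1% were higher than the control in both lines, 30.4% were lower in both and 42.5% had opposite signs.

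**Figure D3:**
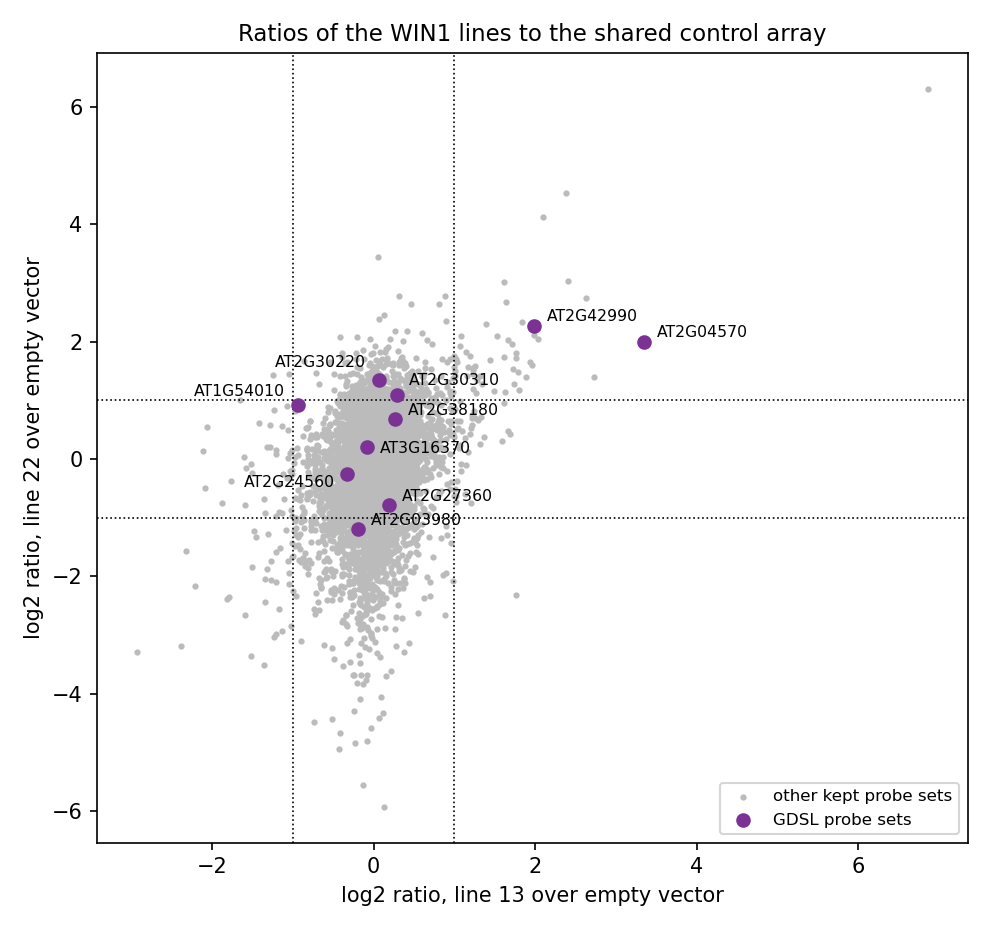
Log2 ratio to the control in line 13 (horizontal) and line 22 (vertical) for the kept probe sets in grey and the 10 GDSL probe sets in purple, with dotted lines at 2-fold. AT2G04570 and AT2G42990 lie in the upper right corner beyond both lines, whereas the other 8 lie within 2-fold in line 13.

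The lines were also set against each other, a comparison of 2 single arrays with no replicates. At least 2-fold apart were 3 members, where 21.9% of kept probe sets were. Of kept probe sets 15.3% were at least 2-fold higher in line 13 and 6.6% in line 22. AT2G04570 was 1.35 log2 units higher in line 13, and AT1G54010 and AT2G30220 were higher in line 22, with line 13 minus line 22 of -1.87 and -1.29. AT2G03980 came close to 2-fold apart, with line 13 above line 22.

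Other genes of surface lipid metabolism were looked up through 1 list for cutin only, so genes outside that list are not covered. Of a list of 27 loci for cutin synthesis, transport and regulation, 2 were read by a named probe set, and WIN1 itself (AT1G15360) was not among them, so its level was not analysed here. GPDHC1 (AT2G41540) encodes a glycerol-3-phosphate dehydrogenase of the cytosol. Its scaled intensities were 75.6 in the control, 562.5 in line 13 and 612.4 in line 22. Its log2 ratio was 2.69 ± 0.084 (SD, n = 2 lines). It was the 1 list member kept and was at least 2-fold higher in both lines, as were 0.866% of all kept probe sets. The list was chosen with earlier results known, so nothing about cutin genes is read from this. AT4G24140, an alpha/beta hydrolase of the BODYGUARD family, was too dim to be kept, with values of -8 in the control, 6.8 in line 13 and 34.4 in line 22. Of 10 loci named as other lipases or carboxylesterases, 0 were read by a named probe set. These loci were found by symbol or synonym, and even among the members only AT1G54010 carries a family name. Lipases without such a name were therefore not counted, and the array may read some.

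Among the 2477 other kept loci, those with the pattern over the 3 arrays nearest to AT2G42990 were AT4G15140, AT2G39980 and GPDHC1. Likeness was measured as the distance between log2 values centred per gene, which was 0.213, 0.242 and 0.466 for these genes. AT4G15140 had scaled intensities of 8 in the control, 90.8 in line 13 and 91 in line 22, and AT2G39980 had 64.7, 245.1 and 321.1. Because of how the 3 were chosen, the control stood below both lines in each, and the lines stood close to each other.

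The loci nearest to AT2G04570 were GPDHC1, AT2G34930 and AT1G03010, at distances of 1.04 each. AT2G34930 had scaled intensities of 28.9 in the control, 157.6 in line 13 and 107.3 in line 22, and AT1G03010 had 6.2, 76.4 and 59.7. AT2G42990 itself lay at 1.24 from AT2G04570. The control values of AT4G15140 and AT1G03010 lay within the background depth, so the pseudocount in large part sets their distances and those of AT2G42990. With 3 arrays these distances are descriptions only.

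The tissue label was checked against marker genes. Of 7 leaf photosynthesis genes 5 were read, and their summed scaled intensity was 9010 in the control, 8899 in line 13 and 13951 in line 22. Of 10 anther and pollen genes 3 were read, with sums of 88.0, 62.0 and 199.4. Both sums were highest in line 22, as were AT2G30220, AT2G30310, AT2G42990, AT1G54010, AT2G38180 and AT3G16370. The part of the sums in those results was not tested. Over kept probe sets, the median line 22 log2 ratio was 0.41 in the brightest decile, against -0.09 over all of them. The anther sum in line 22 came largely from the actin gene ACT11, with 19.7 in the control, 7.8 in line 13 and 101.6 in line 22. The tapetum regulator AMS was at 7.8 in the control, 7.4 in line 13 and 17.5 in line 22, all within the background depth. None of 6 epidermal, 4 seed or 3 root markers was read by a named probe set, so the share of epidermis in each sample could not be compared.

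Other scalings moved the arrays as a whole. Without scaling, the middle of the log2 ratios of all kept probe sets (their median) lay at -0.27 in line 13 and -0.78 in line 22, and with scaling to a common median at -0.04 and 0.26. AT2G04570 stayed above the control in both lines, with log2 ratios between 3.06 and 3.52 (line 13) and between 1.23 and 2.40 (line 22) over 7 settings. AT2G42990 did so as well, with ratios between 1.24 and 2.69 (line 13) and between 1.46 and 3.0 (line 22). Among the other members, AT3G16370 in line 22 turned to -0.60 without scaling, and AT2G30220 in line 13 turned to -0.13.

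**Figure D4:**
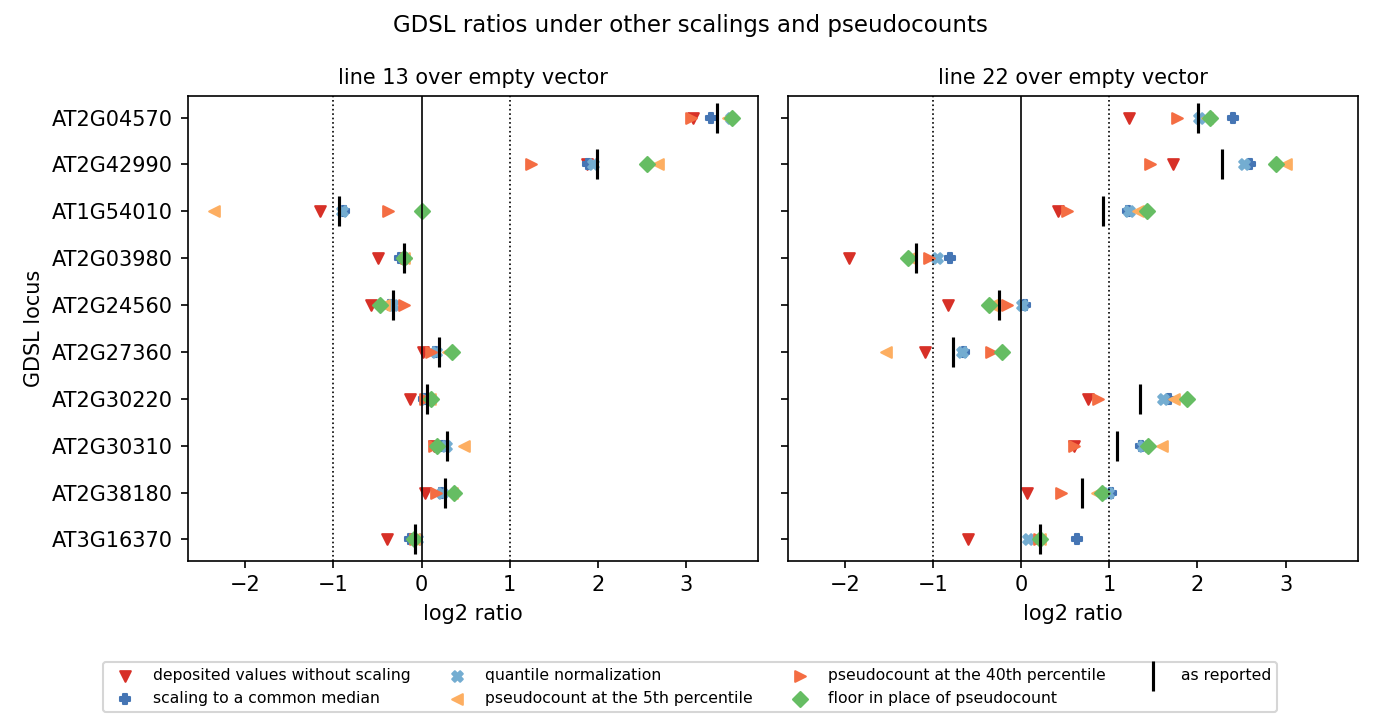
Log2 ratios of the 10 GDSL loci to the control in line 13 (left) and line 22 (right) as reported (black bars) and under other scalings, pseudocounts and a floor (coloured points), with dotted lines at 2-fold. AT2G04570 and AT2G42990 lie beyond 2-fold in both lines under each of the 7 settings, and AT1G54010 in line 13 spans -2.36 to 0.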

How the data were processed

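The deposited values were linear intensities, 1 per probe set and array, which no header or label describes further. The sources used here do not give the software, background step or summary method. Per the labels, cRNA was prepared and scanned by the manufacturer's procedure, and all arrays, per the file headers, came from a single chip lot and scanned in the same session. Medians of the deposited intensity were 70.2 (line 13), 35.2 (line 22) and 84.1 (control), with 13.6% to 16.0% of values at or below 0.

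Factors of 0.981, 1.40 and 0.788 scaled the arrays to a common mean of 176.6, computed without the highest and lowest 2% of values. Negative values were raised to 0, a pseudocount of 18.6 (the 20th percentile of positive values) was added and log2 was taken. Probe sets above the 30th percentile of mean log2 value were kept. The number of arrays limits the precision.

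Probe sets were paired with genes through GEO's platform annotation and a RefSeq gene table (TAIR10.1). Of 8247, 3794 had 1 gene, 70 several and 4383 none, and a probe set with none is unnamed here. Lists of lipases were drawn by symbol and synonym, because the gene table has no description column. The named genes were the 10 loci, matched list members and, for AT2G04570 and AT2G42990, the 3 nearest loci each. The members and lists were chosen with earlier results of these data known, so no test of a ratio was made. The calculation of the rule of size was checked on simulated data with known changes. Calculations used Python 3.11.15, numpy 2.4.6 and pandas 2.3.3.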

Additional observations from a re-analysis of the deposited data

How the results depend on the processing

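No paired analysis was possible because there is a single control array. The alternatives were planned, except leaving out the pseudocount, which was chosen after seeing the data. The same 2 members, AT2G04570 and AT2G42990, were at least 2-fold higher in both lines under every alternative scaling, pseudocount, floor, filter and fold threshold. Both had been listed for their higher values in both lines. The filters take the mean over the 3 arrays, and AT2G42990 passed them through its WIN1 values. In 1 line alone 2 to 4 members were higher and 0 to 1 lower. AT2G30220 and AT2G30310 are the added members in line 22 and AT2G03980 is the lower one. The 3 members 2-fold apart between the lines became 1 with a filter at the 50th percentile, 1 with a pseudocount at the 40th, 5 with a floor, 6 at 1.5-fold and 1 at 3-fold. Over all kept probe sets, the 50 higher and 32 lower in both lines became 22 and 107 without scaling, 85 and 62 with a pseudocount at the 5th percentile, and 21 and 18 with one at the 40th. Filtering at the 50th percentile left 32 and 15. They became 132 and 143 at 1.5-fold, and 20 and 6 at 3-fold. With a floor 80 were lower, and without the filter 59. Each line alone gave 86 to 426 higher and 72 to 946 lower. Counts change with filters and fold thresholds by construction, and other causes were not tested. Without the pseudocount the mean log2 ratio was 2.84 for AT2G04570 and 3.17 for AT2G42990. Between 8 and 10 members passed the filter on dim probe sets under other scalings, pseudocounts and the floor, and 4 passed it at the 50th percentile. Dim signal limits AT2G42990, AT2G30310 and AT1G54010 in the control, AT1G54010 also in line 13, and AT2G27360 in line 22.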
